A study of Homo sapiens with 12 samples.

Results

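Histones are the proteins that package DNA. The 71 core and linker histone genes of H1299 were described here across 12 RNA-seq libraries. H1299, an established line from a human lung cancer of the non-small cell kind, was grown as spheroids. The libraries fall into 4 groups of 3: cells with PRKCI silenced by lentiviral short hairpin RNA (PRKCI_KD) and their control NT1, and cells with SOX2 silenced in the same manner (SOX2_KD) and their control NT2. PRKCI encodes an atypical protein kinase C with a role in polarity. SOX2 is a transcription factor known from stem cells. Neither the number of hairpins for a target nor whether the 3 libraries of a group came from separate cultures is stated, so p-values measure the spread between these libraries, which may be technical. PRKCI_KD and NT1 were run on lane 8 of a flow cell, and SOX2_KD and NT2 on lane 7 of another, so a difference between flow cells and one between these pairs cannot be told apart.

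Genes were taken by name from a table of 64253 entries. Entries whose name begins with HIST1H, HIST2H, HIST3H or HIST4H were taken, together with the replacement genes H1F0, H1FX, H2AFX, H2AFZ, H2AFV, H3F3A and H3F3B, and 96 entries matched. Of these, 13 names end as pseudogene names do, with PS and a digit, 2 entries share a repeated name, and 10 entries did not exceed 0.1 RPKM in at least 3 libraries. RPKM is reads per kilobase of gene, scaled to the read total of the library. The remaining 71 members comprise 64 HIST genes and 7 replacement genes, with 8 of class H1, 17 of H2A, 21 of H2B, 13 of H3 and 12 of H4. Just inside the level rule, HIST1H1A, HIST1H3C and HIST3H2BA exceeded 0.1 RPKM in exactly 3 libraries, with highest values of 0.204, 0.245 and 0.230 RPKM. Just outside it, HIST2H4B exceeded it in 2 libraries, and HIST2H3DP1 in 1, with 0.165 RPKM. The annotation names 4 members as pseudogenes, HIST2H2BA, HIST2H2BC, HIST2H2BD and HIST3H2BA.

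The nucleosome is built of the core histones H2A, H2B, H3 and H4, and H1 binds the DNA between nucleosomes. Most HIST genes are replication-dependent: they lie in clusters, lack introns, are transcribed in S phase, and give messages that end in a conserved stem-loop in place of a poly(A) tail. Replacement histones are made throughout the cell cycle, mostly from polyadenylated messages, and some HIST genes can also give polyadenylated messages, which is known for cells that leave the cycle. The library kit named in the labels enriches polyadenylated RNA, so the levels below are those of the histone RNA that such a kit captures, and which form of the message was read was not tested.

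The stem-loop is shown because it is what sets these messages apart. It was looked for in the first 100 bases after the stop codon. The pattern was a stem of 6 bases that starts with GG, a loop of 4 bases that starts with TT, and the returning stem. It was found in 26 members, 25 HIST genes and H2AFX, in 5 forms. Of 68181 transcripts of other genes with at least 100 bases after the stop codon, 0.019% held it. Members were counted as genes and with no such length required, so the 2 counts are not alike. A member without a match has only no such letters in the window its annotated transcripts cover, which often ends at the stop codon. The capitals below mark stem, loop and stem, with 5 bases on each side, read from the transcripts of the GENCODE annotation of GRCh38.
HIST1H2BH, chr6:26252050-26252075, + strand: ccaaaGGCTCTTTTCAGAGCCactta
HIST1H2BC, chr6:26123467-26123492, - strand: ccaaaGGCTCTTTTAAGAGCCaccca
HIST1H4H, chr6:26285126-26285151, - strand: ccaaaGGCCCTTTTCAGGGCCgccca
HIST1H4I, chr6:27139649-27139674, + strand: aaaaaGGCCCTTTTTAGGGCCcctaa
H2AFX, chr11:119094893-119094918, - strand: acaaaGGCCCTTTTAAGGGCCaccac
The form of HIST1H2BH was found in 13 members and that of HIST1H4H in 5. The form of HIST1H2BC was also found in 5 members, that of HIST1H4I in 2, and that of H2AFX in H2AFX alone.

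Promoters are shown for 3 H2B genes that the results below set side by side. HIST1H2BH had a lower level in PRKCI_KD, whereas HIST2H2BE and HIST1H2BC lie head to head with an H2A gene that passed a test they did not. The capitals mark the octamer ATTTGCAT, the TATA motif TATAAA and the CCAAT motif, each on either strand, in the 250 bases before the start of the gene (RefSeq, GRCh38.p14).
HIST1H2BH (H2BC9), chr6:26251364-26251613, + strand: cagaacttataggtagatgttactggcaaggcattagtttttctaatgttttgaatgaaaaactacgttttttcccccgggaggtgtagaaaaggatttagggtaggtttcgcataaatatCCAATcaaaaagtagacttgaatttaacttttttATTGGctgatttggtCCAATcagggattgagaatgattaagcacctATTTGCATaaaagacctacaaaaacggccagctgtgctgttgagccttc
HIST2H2BE (H2BC21), chr1:149886683-149886932, - strand: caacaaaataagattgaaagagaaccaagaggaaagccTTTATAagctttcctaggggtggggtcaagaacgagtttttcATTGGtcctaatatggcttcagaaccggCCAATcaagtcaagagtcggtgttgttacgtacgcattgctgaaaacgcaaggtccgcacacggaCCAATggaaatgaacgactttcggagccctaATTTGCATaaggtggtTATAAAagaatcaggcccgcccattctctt
HIST1H2BC (H2BC4), chr6:26123927-26124176, - strand: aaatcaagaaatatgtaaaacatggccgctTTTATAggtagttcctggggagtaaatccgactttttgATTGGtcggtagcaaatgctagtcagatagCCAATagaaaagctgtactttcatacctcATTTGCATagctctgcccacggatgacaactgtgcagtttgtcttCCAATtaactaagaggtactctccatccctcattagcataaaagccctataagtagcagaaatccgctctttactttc
All 3 hold the octamer and more than 1 CCAAT motif. RefSeq promoters of 300 bases, which add 50 bases after the start, were matched for 60 of the 71 members. Only the 250 bases before the start were searched, in the members and in all promoters. Among HIST genes the octamer was found in 10 of 13 H2A and 13 of 17 H2B promoters, against 1.63% of 35116 promoters. An H2A and an H2B gene that lie head to head share much of this window, so the same octamer can count for both classes. CCAAT was found in 46 of 54 HIST promoters, among them 2 of 10 of class H4, against 32.0% of all promoters, and TATAAA in 34 of 54, against 10.7%. These matches are letters in a window and say nothing of binding.

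The read total of a library lay between 77.1 and 124.3 M reads, as recovered from the RPKM values, and members took 0.119% to 0.191% of the reads. PRKCI had 2.43 to 2.58 RPKM in PRKCI_KD, against 13.8 to 16.4 RPKM in NT1, and SOX2 had 0.523 to 0.588 RPKM in SOX2_KD, against 1.41 to 1.55 RPKM in NT2. SOX2 was also lower in PRKCI_KD, with 419, 542 and 442 reads, against 942, 711 and 717 reads in NT1. The read totals of these libraries were 93.6, 94.9 and 87.4 M in PRKCI_KD and 119.0, 95.0 and 98.0 M in NT1. For SOX2, the values of 2 SOX2_KD libraries did not come out as whole reads at the length that fits the other 10. The epithelial keratins KRT8 and KRT18 averaged between 36.3 and 135.5 RPKM in all groups, whereas EPCAM and KRT19 averaged at most 0.304 RPKM. KRT18 passed the test in both knockdowns, at 0.33 in PRKCI_KD and 0.35 in SOX2_KD on the log2 scale (limma adjusted p = 0.00742 and 0.0312). In PRKCI_KD it was 0.0611 with only the libraries of PRKCI_KD and NT1 in the fit. In SOX2_KD it was 0.0549 with no filter on low values, and 0.0917 to 0.107 without any 1 SOX2_KD replicate or NT2 replicate 2 or 3. Of 7 markers of immune, endothelial and fibroblast cells, COL1A1 alone was high enough to test, and CD3E was at 0 in all libraries. COL1A1 had 0.651, 0.524 and 0.523 RPKM in PRKCI_KD, against 0.829, 1.07 and 0.745 RPKM in NT1, a fall with no overlap (-0.55 ± 0.16, limma adjusted p = 0.0182). Its adjusted p was 0.0618 with only the pair in the fit, and 0.0603 to 0.0716 without PRKCI_KD replicate 2 or 3 or NT1 replicate 2. It had 0.281 to 0.302 RPKM in SOX2_KD, against 0.308 to 0.464 RPKM in NT2 (adjusted p = 0.396, limma). The part of these cell types in the results below was not tested.

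Levels spanned a wide range among members. Replacement genes had a median of 49.3 RPKM over the 12 libraries, and HIST genes far less. The lengths at which the deposited values become whole reads show how each gene was counted. For 43 HIST genes the counted length passed the coding part by less than 200 bases, at most 126, so little beyond the coding part was counted (the coding-length genes). For 17 HIST genes it passed the coding part by at least 246 bases (the extended genes). The median over the coding-length genes of the group means was 1.07 RPKM in PRKCI_KD, 2.19 in NT1, 1.51 in SOX2_KD and 2.81 in NT2. Over the extended genes it was 7.28 RPKM in PRKCI_KD, 9.14 in NT1, 1.79 in SOX2_KD and 2.57 in NT2, so that the order of the sets in NT2 was not that of the other groups. HIST1H1C and HIST1H2BK averaged above 10 RPKM in every group, whereas HIST1H2AC, HIST1H2BC, HIST1H2BD and HIST1H4I did so in PRKCI_KD and NT1 but not in SOX2_KD or NT2. Over the 12 libraries, 16 members averaged below 1 RPKM.

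Copies of a histone gene resemble each other, which limits what short reads can tell apart. Stretches of 101 bases, the read length, were compared among all annotated transcripts, and 44 members shared none with another gene. At least 50% of the stretches were shared in 11 members, HIST1H2AD, HIST1H2AI, HIST1H2AJ, HIST1H2AK, HIST1H2AM, HIST1H3D, HIST1H4J, HIST1H4K, HIST2H2BD, HIST2H3D and HIST2H4A, so their levels are uncertain. HIST1H2AM overlaps HIST1H3J on the same strand, HIST1H2AK overlaps HIST1H2BN on the other strand, and H2AFZ, H1FX, H3F3A and H3F3B overlap a gene on the other strand. HIST1H2BE, HIST2H2AB, HIST2H2BF and HIST2H4A also overlap a gene on the other strand, and HIST2H2BC and HIST2H2BD overlap each other. HIST1H2AD and HIST1H3D overlap AL031777.3 on the same strand. HIST1H2AL and H3F3B overlap a gene on the same strand by 4 and 87 bases. The kit does not mark strand, so reads of such partners cannot be told apart.

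**Figure D1:**
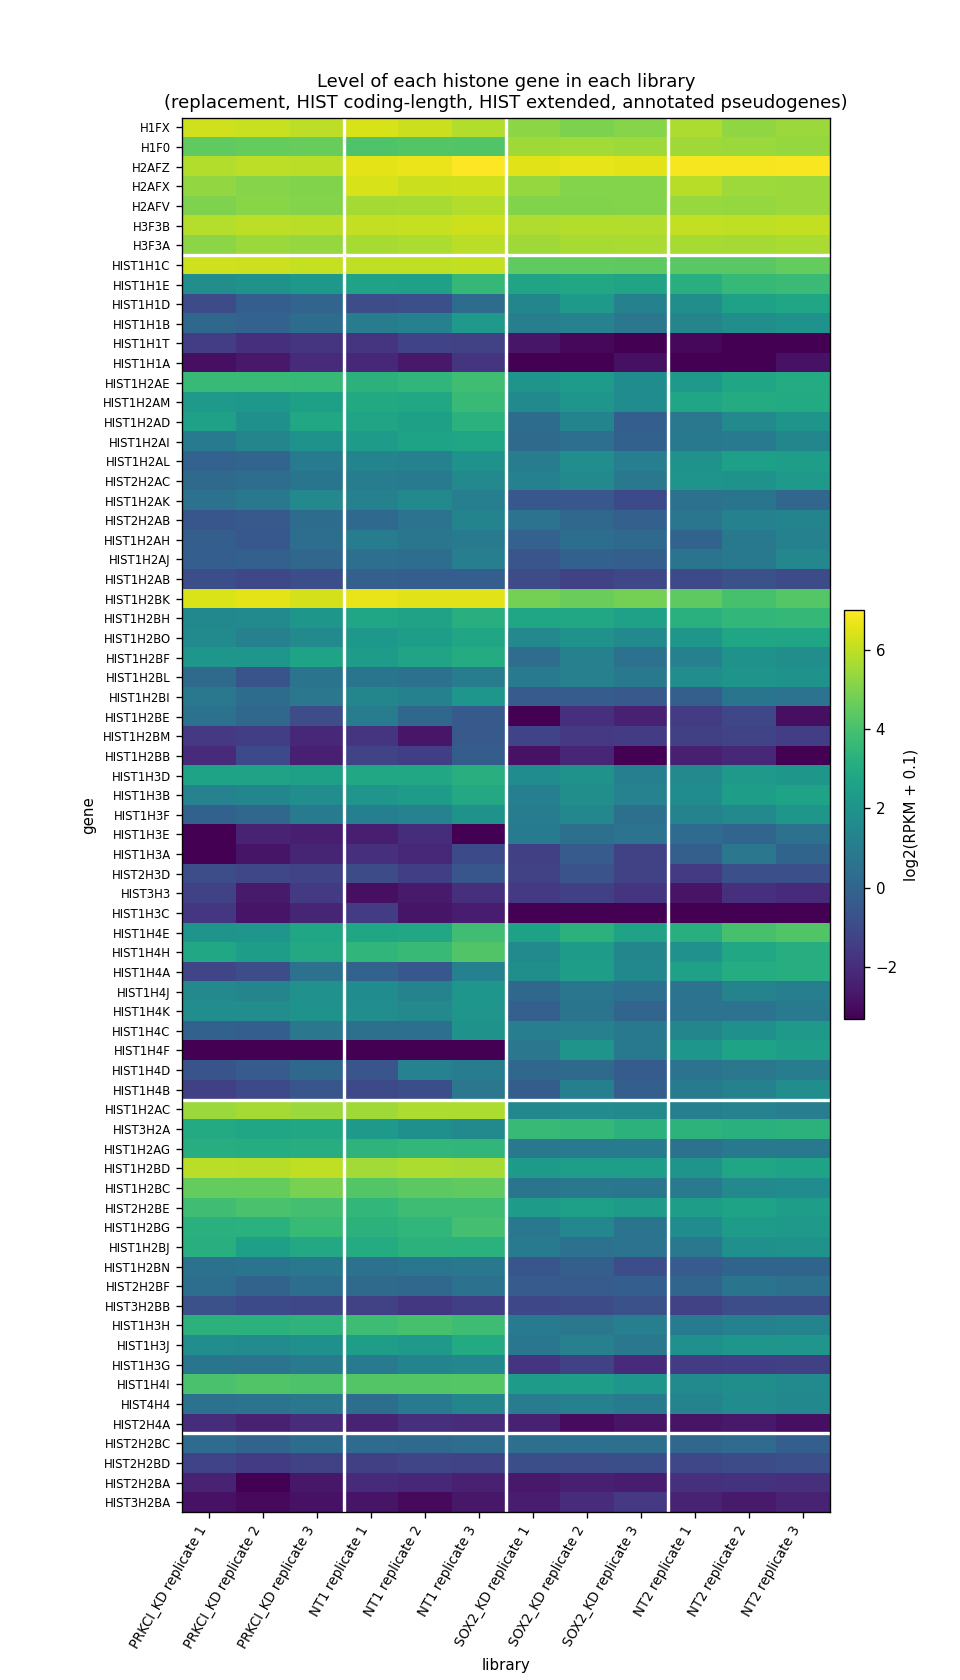
Level of each of the 71 members (rows) in each of the 12 libraries (columns) as log2(RPKM + 0.1), by colour, with white lines between groups of libraries and between replacement, coding-length, extended and pseudogene members. The replacement genes at the top are bright throughout, and many extended genes are brighter in PRKCI_KD and NT1 than in SOX2_KD and NT2.

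Silencing of PRKCI was set against NT1. Tests were made with limma on log2(RPKM + 0.1) over 26772 features, with p-values adjusted over all of them by the Benjamini-Hochberg method and a threshold of 0.05. On this scale, the fold change of a gene at a low level is smaller than the ratio of its means. In PRKCI_KD, 27 of the 71 members passed the test, where 35.2% of all features did. Of these, 24 fell (33.8% of members, against 20.6% of all features) and 3 rose (4.23%, against 14.7%). The median log2 fold change was -0.36 over the members and -0.03 over all features. The 3 libraries of PRKCI_KD lay below the 3 of NT1 in 28 members (39.4%, against 24.8% of all features). In bulk RNA, fewer cells that make a message and less message per cell cannot be told apart.

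Among the replacement genes, 5 of 7 fell in PRKCI_KD and 1 rose, where 20.6% of all features fell and 14.7% rose. H2AFX encodes H2A.X, the variant that is phosphorylated at DNA breaks (chr11:119093854-119095467). It had 39.7, 35.2 and 32.5 RPKM in PRKCI_KD, against 82.3, 72.6 and 73.1 RPKM in NT1. Every PRKCI_KD library lay far below every NT1 library, and the log2 fold change was -1.09 ± 0.13 (SE, limma adjusted p = 8.54e-05). H2AFZ, which encodes the promoter-associated variant H2A.Z (chr4:99948086-99950388), had 55.4, 61.9 and 61.3 RPKM in PRKCI_KD, against 94.2, 103 and 128 RPKM in NT1, a change of -0.85 ± 0.09 (adjusted p = 5.22e-05, limma). H2AFV, the other H2A.Z gene, fell by 0.59 ± 0.06 on the log2 scale, to 33.9 RPKM in PRKCI_KD, against 51.2 RPKM in NT1 (adjusted p = 2.39e-05, limma).

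H3F3A and H3F3B encode the same protein, the replacement histone H3.3, from different messages. H3F3A fell by 0.44 ± 0.08 and H3F3B by 0.21 ± 0.05 on the log2 scale in PRKCI_KD (limma adjusted p = 0.00176 and 0.0129). With only the libraries of PRKCI_KD and NT1 in the fit, the adjusted p of H3F3B was 0.0677. H1F0 is a linker histone known to accumulate in cells that stop dividing (chr22:37805093-37807436), and it was the replacement gene that rose. It had 21.9, 23.4 and 23.8 RPKM in PRKCI_KD, against 18.0, 18.9 and 18.3 RPKM in NT1, with no overlap between the groups and a change of 0.33 ± 0.05 (limma adjusted p = 0.000578). The linker gene H1FX averaged 69.1 ± 6.7 RPKM in PRKCI_KD and 70.0 ± 12.7 RPKM in NT1 (SD, n = 3 each), and did not pass the test (adjusted p = 0.984, limma).

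Of the 43 coding-length HIST genes, 16 fell in PRKCI_KD, and their median log2 fold change was -0.70. Of the 17 extended HIST genes, 3 fell and 2 rose, with a median of -0.13. These shares of the extended genes were near those of all features, 20.6% lower and 14.7% higher. Whether the sets differ in this was not tested. The median level over the 43 coding-length genes was 1.02, 0.936 and 1.49 RPKM in PRKCI_KD, against 2.00, 2.21 and 2.79 RPKM in NT1, so that the libraries of the groups did not overlap. The median over the 17 extended genes was 8.41, 6.59 and 7.49 RPKM in PRKCI_KD, against 8.05, 9.86 and 9.52 RPKM in NT1, and here the groups overlapped. NT1 replicate 3 held the highest NT1 value in 33 of the 42 coding-length genes whose NT1 values differ.

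HIST1H2BH, an H2B gene (chr6:26251651-26253710), had 2.69, 2.84 and 4.34 RPKM in PRKCI_KD, against 6.60, 6.09 and 8.95 RPKM in NT1. All NT1 libraries were higher than all PRKCI_KD libraries, and the log2 fold change was -1.12 ± 0.19 (limma adjusted p = 0.000889). HIST1H1B, a linker histone gene (chr6:27866849-27867529), had 1.02, 0.850 and 1.14 RPKM in PRKCI_KD, against 1.94, 2.22 and 4.55 RPKM in NT1. Its change of -1.35 ± 0.28 was the lowest of all members (limma adjusted p = 0.00323), with NT1 replicate 3 well above the other NT1 libraries. The H2B gene HIST1H2BO fell by 1.05 ± 0.20 on the log2 scale (limma adjusted p = 0.0022), and the H2A gene HIST1H2AB fell by 0.70 ± 0.12 (limma adjusted p = 0.00137), both with no overlap between the groups. HIST1H2AB had only 17, 14 and 16 reads in PRKCI_KD, against 37, 28 and 29 reads in NT1. Few reads thus limit its call, since the fit takes no account of counting error in single libraries.

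By class, 9 of 14 H2A, 3 of 21 H2B, 4 of 11 H3, 1 of 12 H4 and 2 of 6 H1 genes among the HIST members fell, where 20.6% of all features did. The H3 gene HIST1H3B averaged 2.71 ± 0.48 RPKM in PRKCI_KD and 5.45 ± 1.77 RPKM in NT1 (SD, n = 3 each; limma adjusted p = 0.0239). The H4 gene HIST1H4H averaged 6.57 ± 1.01 RPKM in PRKCI_KD and 13.8 ± 4.0 RPKM in NT1 (SD, n = 3 each; limma adjusted p = 0.0347). Both calls were near the threshold and were lost when any of several single libraries was left out. Without NT1 replicate 3 the adjusted p was 0.0863 for HIST1H3B and 0.117 for HIST1H4H. Without PRKCI_KD replicate 1 these were 0.0783 and 0.0645, and without PRKCI_KD replicate 2 they were 0.0652 and 0.11. HIST1H4H also missed the threshold without PRKCI_KD replicate 3 (0.0568) or NT1 replicate 2 (0.0601), and with no filter on low values (0.0609). Of the 24 members that fell, 16 did so without each of the 12 libraries in turn, and 16 members in all fell when NT1 replicate 3 or PRKCI_KD replicate 2 was left out.

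The 3 HIST genes with the highest means in PRKCI_KD did not pass the test. HIST1H2BK, at 86.1, 94.0 and 81.1 RPKM in PRKCI_KD, against 99.5, 92.1 and 92.6 RPKM in NT1, had a log2 fold change of -0.12 ± 0.11 (limma adjusted p = 0.411). HIST1H1C, the most abundant HIST linker gene, had 75.0, 74.6 and 67.9 RPKM in PRKCI_KD, against 63.7, 63.6 and 67.0 RPKM in NT1 (0.16 ± 0.07, limma adjusted p = 0.0795). HIST1H2BD, an extended H2B gene, had 59.9 to 64.9 RPKM in PRKCI_KD, against 47.2 to 52.2 RPKM in NT1 (0.31 ± 0.15, limma adjusted p = 0.151). In HIST1H1C and HIST1H2BD, every PRKCI_KD library lay above every NT1 library. HIST genes that rose were HIST3H2A, an H2A gene, and its neighbour HIST3H2BB, an H2B gene, both away from the large cluster on chromosome 6. HIST3H2A (chr1:228456979-228457873) had 7.76, 6.58 and 7.14 RPKM in PRKCI_KD, against 4.51, 3.53 and 3.01 RPKM in NT1, with no overlap (0.96 ± 0.13, limma adjusted p = 0.000247). HIST3H2BB, below 0.5 RPKM throughout, rose by 0.51 ± 0.16 on the log2 scale (limma adjusted p = 0.0306). Its adjusted p was 0.108 without PRKCI_KD replicate 1, 0.0585 without PRKCI_KD replicate 2, 0.106 without NT1 replicate 2 and 0.0543 without NT1 replicate 3. It was 0.0619 with no filter on low values, 0.0603 after quantile normalization and 0.0631 with only the pair in the fit.

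**Figure D2:**
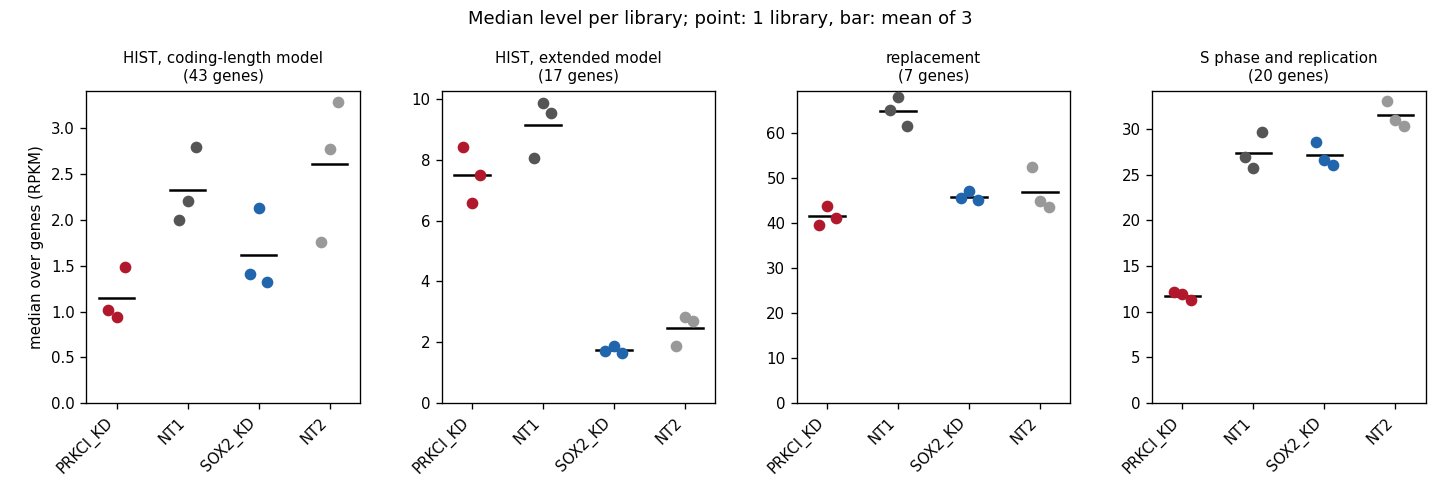
Median level in RPKM over the genes of each set (43 coding-length and 17 extended HIST genes, 7 replacement genes and 20 genes of S phase and replication) in each library, shown as a point, with a bar at the mean of 3 libraries. The coding-length medians of PRKCI_KD lie below those of NT1, and the S phase medians of PRKCI_KD, 11.3 to 12.1 RPKM, lie far below the 25.7 to 29.6 RPKM of NT1.

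Silencing of SOX2 was set against NT2. In SOX2_KD, 14 of the 71 members passed the test (19.7%), where 5.05% of all features did. Of these, 11 fell (15.5% of members, against 2.8% of all features) and 3 rose (4.23%, against 2.25%). The median log2 fold change was -0.54 over the members and -0.01 over all features. The 3 SOX2_KD libraries lay below the 3 of NT2 in 30 members (42.3%, against 14.9% of all features). Single libraries moved these counts. The number passing was 5 without SOX2_KD replicate 3, 6 without SOX2_KD replicate 1 or without NT2 replicate 3, 7 without NT2 replicate 2, and up to 18 without another library.

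HIST1H3J, an extended H3 gene (chr6:27890382-27893106), had 1.58, 2.12 and 1.63 RPKM in SOX2_KD, against 3.51, 4.16 and 4.01 RPKM in NT2. The groups were well apart, and the log2 fold change was -1.10 ± 0.17 (limma adjusted p = 0.00599). HIST1H2AM, the H2A gene that overlaps it, had 2.94, 4.07 and 3.10 RPKM in SOX2_KD, against 6.61, 8.15 and 7.83 RPKM in NT2 (-1.15 ± 0.20, limma adjusted p = 0.00933). Of the stretches of HIST1H2AM, 84.0% are shared, so the 2 genes may not be independent measurements. The H2A gene HIST1H2AJ fell by 1.29 ± 0.24 on the log2 scale (limma adjusted p = 0.0134, and 0.0628 with only SOX2_KD and NT2 in the fit). HIST1H2BG, an extended H2B gene, had 1.67, 2.61 and 1.48 RPKM in SOX2_KD, against 3.18, 4.97 and 4.75 RPKM in NT2 (-1.14 ± 0.24, limma adjusted p = 0.0229). Without SOX2_KD replicate 1 or 3 its adjusted p was 0.0753 and 0.0952, and without NT2 replicate 2 or 3 it was 0.0849 and 0.0814. With only SOX2_KD and NT2 in the fit it was 0.0937. HIST1H2AK, an H2A gene, and HIST2H2BF, an H2B gene, fell by 1.12 ± 0.26 and 0.72 ± 0.18 on the log2 scale (limma adjusted p = 0.0372 and 0.0446). The call of HIST1H2AK was lost without PRKCI_KD replicate 2, any SOX2_KD replicate, or NT2 replicate 1 or 2 (adjusted p 0.0529 to 0.139). It was also lost with a pseudocount of 0.5 (0.0553) or 1 (0.0783), with no filter (0.0652) and with only the pair in the fit (0.073). That of HIST2H2BF was lost without PRKCI_KD replicate 1 or 3, NT1 replicate 1 or 2, any SOX2_KD replicate, or NT2 replicate 2 or 3 (0.0563 to 0.144). It was also lost with a pseudocount of 1 (0.0504), with no filter (0.0775), after quantile normalization (0.0535) and with only the pair in the fit (0.101).

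Of the 43 coding-length genes, 6 fell and 1 rose in SOX2_KD, and 37 had an estimate below 0, with a median of -0.74. Their median level was 1.41, 2.13 and 1.32 RPKM in SOX2_KD, against 1.76, 2.77 and 3.29 RPKM in NT2. These groups overlapped, since SOX2_KD replicate 2 lay above NT2 replicate 1. NT2 replicate 1 held the lowest NT2 value in 33 of 42 of these genes, and SOX2_KD replicate 2 the highest SOX2_KD value in 34 of 42. Of the 17 extended genes 3 fell and 2 rose, with a median of -0.26. Over all features, 2.8% fell and 2.25% rose in SOX2_KD, and 14210 of 26772 had an estimate below 0.

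Among replacement genes, H2AFV and H3F3B fell in SOX2_KD. H2AFV had 32.8, 33.3 and 33.4 RPKM in SOX2_KD, against 42.4, 41.6 and 43.6 RPKM in NT2 (-0.36 ± 0.06, limma adjusted p = 0.00734), with the groups well apart. H3F3B fell by 0.25 ± 0.05 on the log2 scale (limma adjusted p = 0.0279). Without any single library of its pair its adjusted p was between 0.0647 and 0.0936, and it was 0.134 after quantile normalization. H2AFX averaged 36.3 ± 4.4 RPKM in SOX2_KD and 49.1 ± 8.9 RPKM in NT2 (SD, n = 3 each) without passing the test (limma adjusted p = 0.0881). H2AFZ averaged 94.8 ± 2.8 RPKM in SOX2_KD and 116.6 ± 1.4 RPKM in NT2 (SD, n = 3 each; limma adjusted p = 0.101). The SOX2_KD libraries of both genes lay below the NT2 libraries.

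The 3 members that rose in SOX2_KD were HIST1H4I, HIST1H2BK and HIST1H2AC, an H4, an H2B and an H2A gene. HIST1H4I (chr6:27138588-27139881) had 5.03, 5.41 and 4.21 RPKM in SOX2_KD, against 2.96, 3.40 and 2.86 RPKM in NT2, with no overlap (0.65 ± 0.09, limma adjusted p = 0.00462). HIST1H2BK had 28.7, 24.9 and 28.7 RPKM in SOX2_KD, against 21.7, 15.9 and 19.2 RPKM in NT2 (0.54 ± 0.11, limma adjusted p = 0.0168). HIST1H2AC had 2.68, 3.05 and 2.85 RPKM in SOX2_KD, against 2.07, 2.29 and 2.05 RPKM in NT2 (0.41 ± 0.08, limma adjusted p = 0.0165). With only SOX2_KD and NT2 in the fit, the adjusted p of these genes was 0.0551, 0.0936 and 0.0541 in the same order. HIST1H2BK missed the threshold without SOX2_KD replicate 1 (0.0598), SOX2_KD replicate 3 (0.0757) or NT2 replicate 3 (0.0518). HIST1H2AC missed it without SOX2_KD replicate 2 (0.0786), SOX2_KD replicate 3 (0.0651) or NT2 replicate 3 (0.0642).

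**Figure D3:**
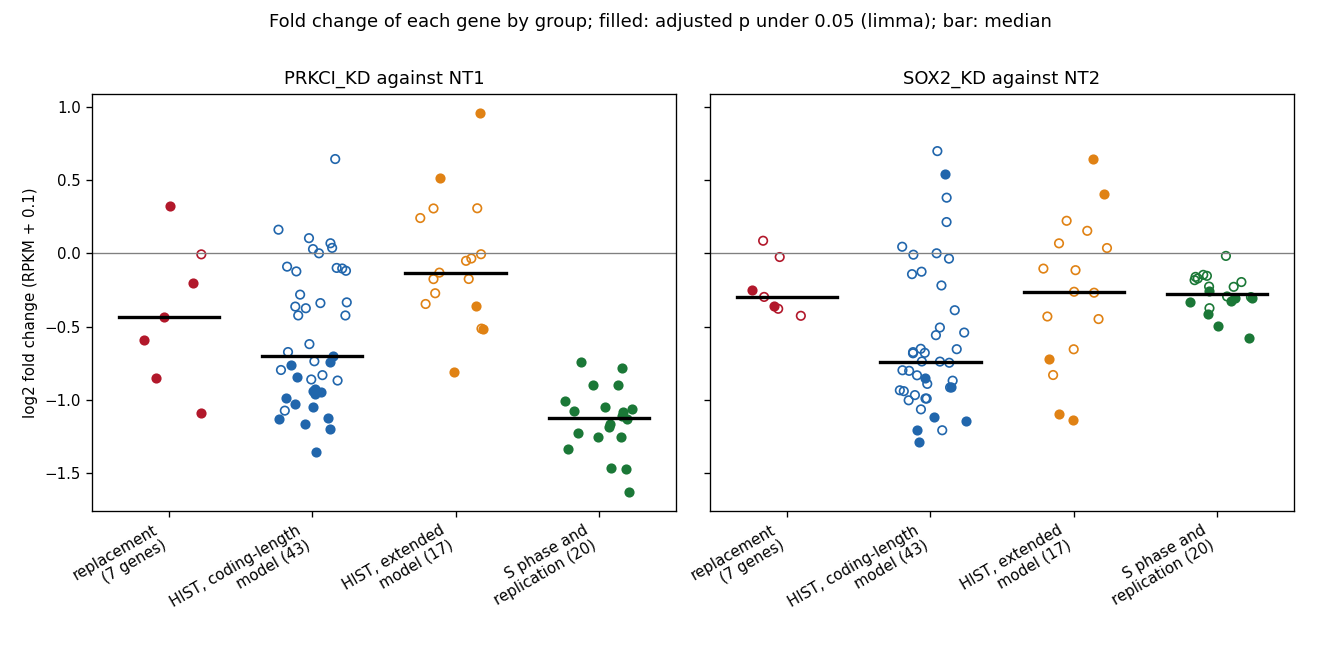
Log2 fold change on RPKM + 0.1 of each gene (points) by set, for PRKCI_KD against NT1 on the left and SOX2_KD against NT2 on the right, with filled points past an adjusted p of 0.05 and a bar at the median. The coding-length medians are -0.70 and -0.74 in the 2 panels, whereas the medians of the S phase genes are -1.12 and -0.28.

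The members lower in both knockdowns, each by its own test, were 7: H2AFV, H3F3B, HIST1H2AJ, HIST1H2AM, HIST1H2BO, HIST1H3J and HIST2H2AC. Over all features, 1.64% were lower in both. The 2 comparisons share no library, though the spread is estimated over all 12. SOX2 itself was lower in PRKCI_KD too, as given above, and its part in these members was not tested. In PRKCI_KD, the call of HIST1H2AJ was lost without PRKCI_KD replicate 1 (0.0848), PRKCI_KD replicate 2 (0.0774) or NT1 replicate 3 (0.0979), and with only the pair in the fit (0.0562). In SOX2_KD, that of HIST1H2BO was lost without PRKCI_KD replicate 1 or 3, NT1 replicate 2, any SOX2_KD replicate, or NT2 replicate 2 or 3 (0.0515 to 0.132), with no filter (0.0669), after quantile normalization (0.0501) and with only the pair in the fit (0.0968). HIST2H2AC, an H2A gene of the chromosome 1 cluster (chr1:149886975-149887364), had 1.09, 1.19 and 1.49 RPKM in PRKCI_KD, against 2.00, 1.78 and 2.79 RPKM in NT1. It had 2.20, 2.83 and 1.64 RPKM in SOX2_KD, against 3.99, 3.88 and 4.71 RPKM in NT2. In both comparisons the groups were apart, with log2 fold changes of -0.74 ± 0.21 and -0.91 ± 0.21 (limma adjusted p = 0.0162 and 0.0304). Against NT1, its adjusted p was 0.0584 without PRKCI_KD replicate 1, 0.0509 without PRKCI_KD replicate 2 and 0.0577 without NT1 replicate 3. Against NT2, it was 0.0545 with no filter on low values, 0.0846 with only the pair in the fit, and 0.0662 to 0.109 without NT2 replicate 1, 2 or 3 or SOX2_KD replicate 1 or 3.

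The difference between the responses, PRKCI_KD against NT1 minus SOX2_KD against NT2, was tested in the same fit. It passed for 10 members (14.1%), against 17.9% of all features, with 7 below 0 (9.86%, against 10.2%) and 3 above 0 (4.23%, against 7.68%). It passed for 6 without PRKCI_KD replicate 3. H2AFX, H2AFZ and H3F3A had a lower response in PRKCI_KD than in SOX2_KD, where they did not pass the test, with differences of -0.66 ± 0.18, -0.55 ± 0.13 and -0.41 ± 0.11 (limma adjusted p = 0.0291, 0.0151 and 0.0307). HIST1H4I, HIST1H2BK, HIST1H2AC and HIST1H2AG also had a lower response in PRKCI_KD than in SOX2_KD, whereas H1F0, HIST3H2A and HIST1H2BC had a higher one. H2AFZ, HIST1H4I, HIST1H2BK, HIST1H2AC and HIST1H2AG passed without each of the 12 libraries in turn. The call of H2AFX was lost without PRKCI_KD replicate 2 or 3, NT1 replicate 1, SOX2_KD replicate 1 or NT2 replicate 2 or 3 (adjusted p 0.0609 to 0.0695), and with no filter (0.0517). That of H3F3A was lost without PRKCI_KD replicate 1 or 3, SOX2_KD replicate 2 or 3 or NT2 replicate 2 (0.0555 to 0.0768), and with no filter (0.0515). That of HIST1H2BC was lost without PRKCI_KD replicate 3 (0.0529) or NT2 replicate 2 (0.0539), and that of HIST3H2A without SOX2_KD replicate 3 (0.0503). That of H1F0 was lost without any library but PRKCI_KD replicate 1 and NT2 replicate 3 (0.0538 to 0.1), with no filter (0.0541) and after quantile normalization (0.0522). Of the 43 coding-length genes, the difference passed for HIST1H2BK alone, which does not show that the responses of the others were alike.

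H2A and H2B genes often lie head to head with a shared stretch between their starts. There were 10 such pairs among the members, with 219 to 331 bases from start to start, and the partners did not always respond together. HIST2H2AC passed the test in both knockdowns, as given above. Its partner HIST2H2BE, 323 bases away and preceded by the promoter printed above, had 14.2, 16.2 and 15.2 RPKM in PRKCI_KD, against 11.2, 13.7 and 13.7 RPKM in NT1 (0.24 ± 0.09, limma adjusted p = 0.0711). HIST1H2AC rose in SOX2_KD, whereas its partner HIST1H2BC, 219 bases away, had 1.45, 1.64 and 1.58 RPKM in SOX2_KD, against 1.78, 2.84 and 3.11 RPKM in NT2 (-0.66 ± 0.18, limma adjusted p = 0.0597). HIST1H2AM and HIST1H2BO fell together in both knockdowns. The difference between partners within a pair was not tested, and the counted lengths of partners differ.

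**Figure D4:**
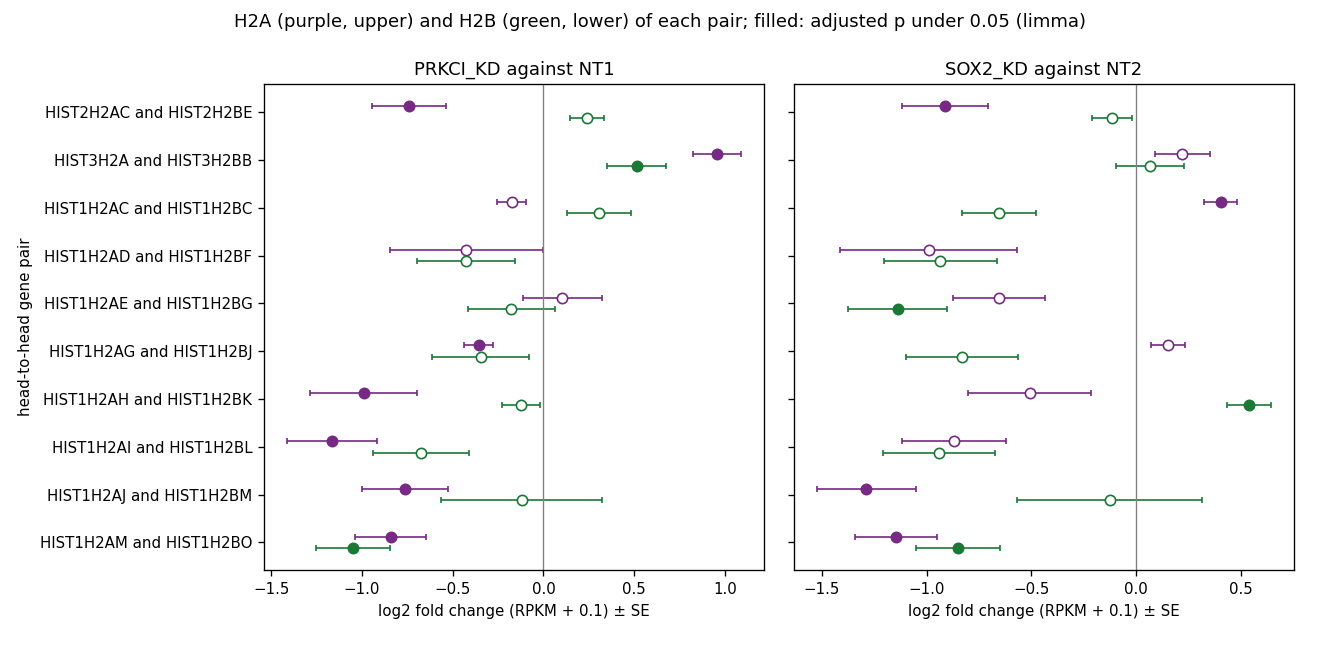
Log2 fold change on RPKM + 0.1 with its SE for the H2A gene (purple, upper point) and the H2B gene (green, lower point) of 10 head-to-head pairs, for PRKCI_KD against NT1 on the left and SOX2_KD against NT2 on the right. Filled points have an adjusted p under 0.05. In the top row HIST2H2AC lies at -0.74 and -0.91, and HIST2H2BE at 0.24 and -0.12.

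Genes that make, process and use histones were counted beside the members. Over all features, 20.6% fell and 14.7% rose in PRKCI_KD, and 2.8% fell and 2.25% rose in SOX2_KD. The difference between the responses passed for 17.9% of all features. Of 20 genes of S phase and replication, all 20 fell in PRKCI_KD, with a median of -1.12, and 8 fell in SOX2_KD, with a median of -0.28. The difference between the responses passed for all 20. GINS2, a part of the replicative helicase, changed by -1.63 in PRKCI_KD and by -0.50 in SOX2_KD (limma adjusted p = 4.6e-08 and 0.0028). The helicase gene MCM4 changed by -1.07 and -0.26 (limma adjusted p = 1.71e-07 and 0.0173). In SOX2_KD, the count of 8 became 2 without any 1 of SOX2_KD replicates 1, 2 and 3 or NT2 replicates 2 and 3, 4 without NT2 replicate 1, 5 without PRKCI_KD replicate 1, 2 or 3 or NT1 replicate 1, and 2 after quantile normalization. The adjusted p of MCM4 was 0.0539 to 0.0775 without any of those 5 libraries of the pair, and 0.0962 after quantile normalization.

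Of 26 genes for the transcription and 3' processing of histone messages, 10 fell in PRKCI_KD and 4 in SOX2_KD, where 20.6% and 2.8% of all features did. CSTF2, a 3' cleavage factor, changed by -0.93 in PRKCI_KD and -0.27 in SOX2_KD (limma adjusted p = 1.29e-07 and 0.00639). CPSF3, the endonuclease that cuts histone pre-messages, changed by -0.67 in PRKCI_KD (limma adjusted p = 1.15e-05). SLBP, which binds the stem-loop, and NPAT, the coactivator of histone genes, did not pass in PRKCI_KD, at 0.16 and -0.23 (limma adjusted p = 0.12 and 0.136), and were chosen for their role after their values were seen. Of 25 chaperone and deposition genes, 14 fell and 1 rose in PRKCI_KD, and 2 fell in SOX2_KD. ASF1B and CHAF1B, chaperones of newly made H3 and H4, changed by -1.05 and -1.06 in PRKCI_KD (limma adjusted p = 1.27e-06 and 1.66e-06). In SOX2_KD, the count of processing genes was 1 to 5 and that of chaperone genes 0 to 3 when any single library was left out.

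Of the other histone genes, 6 of 14 listed in the table were high enough to test and 5 fell in PRKCI_KD, whereas 1 rose in SOX2_KD. CENPA, the centromeric H3 variant, changed by -0.85, and the macroH2A genes H2AFY2 and H2AFY by -0.65 and -0.46 (limma adjusted p = 1.79e-05, 1.62e-05 and 5.36e-05). H2AFJ changed by -0.25 (limma adjusted p = 0.0418). It missed the threshold without any PRKCI_KD replicate, NT1 replicate 1 or 2, SOX2_KD replicate 3 or NT2 replicate 3 (adjusted p 0.054 to 0.131), under median-of-ratios scaling (0.0819), with no filter (0.0641) and after quantile normalization (0.0825). The gene that rose in SOX2_KD was H2BFS, named after its values were seen, with 12.5, 11.8 and 12.0 RPKM in SOX2_KD, against 7.00, 8.51 and 9.90 RPKM in NT2 (0.52 ± 0.10, limma adjusted p = 0.0177). Its adjusted p was 0.0999 with only the pair in the fit, and 0.0558 to 0.067 without any 1 SOX2_KD replicate or NT2 replicate 2. Of 13 genes of quiescence and differentiation, 5 rose and 2 fell in PRKCI_KD, and 1 rose and 1 fell in SOX2_KD. Over all features, 14.7% rose and 20.6% fell in PRKCI_KD, and 2.25% rose and 2.8% fell in SOX2_KD. The share of this list that fell in PRKCI_KD was thus below that of all features. BTG1, KLF4 and CDKN1A changed in PRKCI_KD by 0.76, 0.93 and 0.52 (limma adjusted p = 1.36e-05, 1.76e-05 and 0.000107), RBL1 by -0.75 (limma adjusted p = 0.000375) and CDKN2B, named after its values were seen, by -0.88 (limma adjusted p = 0.000541). All 5 are known to restrain growth in many cells. The genes that changed in SOX2_KD, also named after their values were seen, were GADD45B at 0.57 and KLF6 at -0.55 (limma adjusted p = 0.0288 and 0.00327). For GADD45B it was 0.0839 with only the pair in the fit, and 0.0866 to 0.11 without SOX2_KD replicate 1 or 3 or NT2 replicate 2 or 3. Which of these genes bear on the members was not tested.

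NT2 was set against NT1 to show how far the control groups stood apart, and flow cell and any difference of hairpin or culture cannot be told apart in it. The test passed for 49 members (69.0%), the same share as the 69.0% of all features. In NT2, 34 members were lower (47.9%, against 38.7%) and 15 higher (21.1%, against 30.3%). The groups did not overlap in 50 members, 34 of them lower in NT2, where 69.9% of all features did not overlap and 39.1% were lower with no overlap. The median log2 difference over all features was -0.12, and 0.06 after quantile normalization, and over the members it was -0.22. Large differences lay in both directions. HIST1H2AC (chr6:26124145-26139116) had 2.07, 2.29 and 2.05 RPKM in NT2, against 45.7, 52.9 and 53.5 RPKM in NT1 (-4.50 ± 0.08, limma adjusted p = 2.03e-12). HIST1H2BC, HIST1H2BD, HIST1H3H, HIST1H4I and HIST1H2AG were lower in NT2 by log2 differences between -3.15 and -2.59, and 13 of the 17 extended genes were lower. HIST1H1A, HIST1H1T, HIST1H3C and HIST2H4A, also lower in NT2, passed the level rule only through libraries of PRKCI_KD and NT1. HIST1H2BB, also lower in NT2, was above 0.1 RPKM in too few libraries of SOX2_KD and NT2 to pass the rule through them. For all these genes the rule itself favours a lower value in NT2.

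HIST1H4F, an H4 gene (chr6:26240426-26240737), had 4.18, 6.28 and 5.43 RPKM in NT2 and no read in any NT1 or PRKCI_KD library. With a floor of 3 reads over the NT1 group, 0.0307 RPKM, its NT2 mean was at least 172-fold higher than NT1. The floor covers counting error only. HIST1H4F passed the level rule only through libraries of SOX2_KD and NT2, so its being a member already depends on this difference. In SOX2_KD it had 1.59, 3.95 and 1.70 RPKM, below all NT2 libraries (-1.21 ± 0.28, limma adjusted p = 0.0363). That call was lost in 8 of 12 leave-outs, with the largest adjusted p, 0.138, without SOX2_KD replicate 3, and was at 0.0665 with no filter and 0.164 with only the pair in the fit. HIST1H3E, HIST1H1D and HIST1H4A were higher in NT2 by log2 differences of 2.89, 2.82 and 2.68 (limma adjusted p = 1.67e-05, 7.23e-05 and 0.000597). HIST1H3E was above 0.1 RPKM in too few libraries of PRKCI_KD and NT1 to pass the level rule through them. Its being a member thus also depends on this difference.

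**Figure D5:**
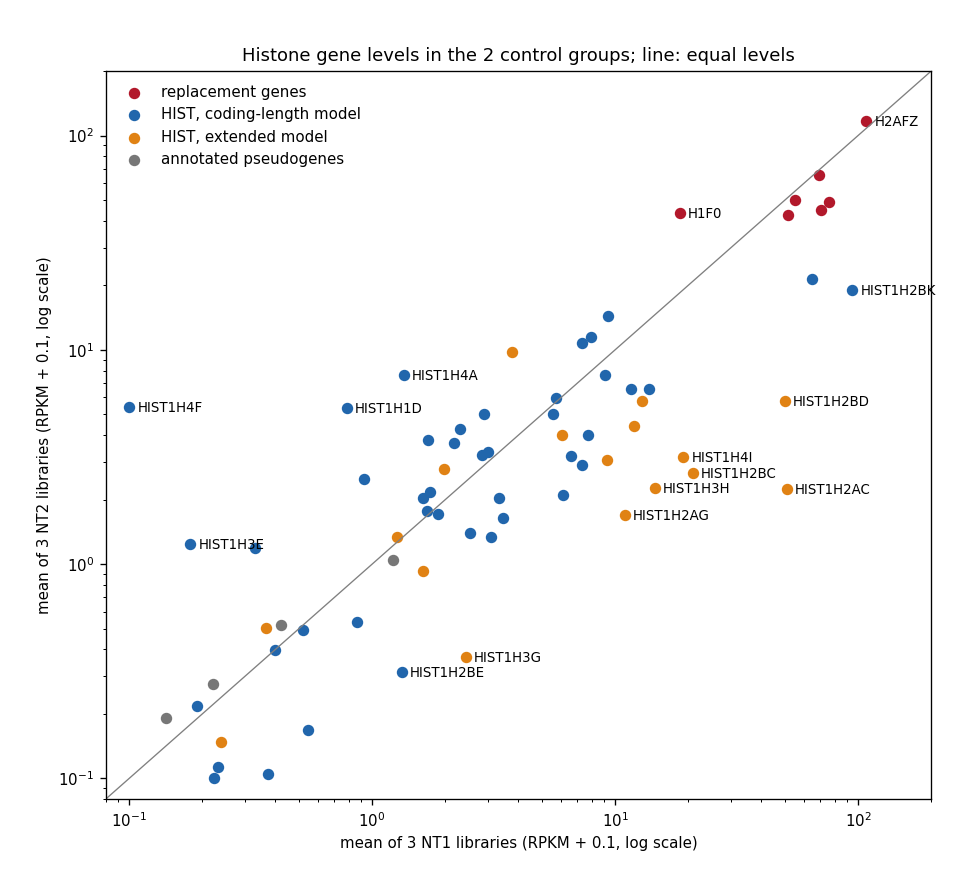
Mean level of each member in NT2 (vertical) against NT1 (horizontal), as RPKM + 0.1 on log axes, coloured by counting model, with a line of equal levels. HIST1H2AC, HIST1H2BD and HIST1H2BC lie far below the line, and HIST1H4F lies at the left edge, with no reads in NT1.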

How the data were processed

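RNA-seq libraries of 4 groups of 3 were used. Values are RPKM, deposited by the authors in a single table, per the file headers. TopHat2 2.1, Bowtie 1.1.2, featureCounts and GRCh38 are named in the submitters' processing notes. For the annotation, strand setting and reads with several matches, the choices are not given in the sources used. The kit (TruSeq RNA Sample Prep v2, 120 ng of RNA, paired reads of 101 bases) is that of the labels' protocols.

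Of 64253 entries, 7091 with a repeated name (7068) or a date in place of a name (29) were left out, 6 of them for both reasons, and 26772 above 0.1 RPKM in at least 3 libraries were tested. Log2(RPKM + 0.1) was fitted with limma 3.58.1 in R 4.3.3 (trend on the mean level, 12 libraries, 4 group means, 8 residual and 2.67 prior degrees of freedom), with Benjamini-Hochberg adjustment over all features and a threshold of 0.05. The steps were tested on simulated data. With 3 libraries against 3, an exact two-sided permutation test cannot go below 0.1, so none is given.

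Read totals and counted gene lengths were recovered from the RPKM values, since all 71 members came out as whole reads at 1 length within 0.001 reads. Precision rests on those reads and on 3 libraries a group. Genes were annotated from GENCODE (GRCh38) and promoters from RefSeq (GRCh38.p14). Named genes were the 7 replacement genes, for each class the 4 HIST members with the highest mean level, per comparison the 5 members a direction with the lowest p among those called, and the 4 genes of each list with the lowest p in PRKCI_KD against NT1. Members named for a leave-out, an overlap or a head-to-head partner were added after their values were seen. The members and lists were chosen with earlier results of these data known. Alternatives were pseudocounts of 0.5 and 1, a level of 0.5 RPKM, no filter, quantile normalization, median-of-ratios scaling, fits of single pairs, a replicate block, and leaving out each library.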

Additional observations from a re-analysis of the deposited data

Results flagged for a closer look

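The response to PRKCI silencing against NT1 and the response to SOX2 silencing against NT2 differed for 10 members by limma's test of the difference itself (adjusted p under 0.05 over all features). The difference, first response minus the second on the log2 scale, was -0.78 for HIST1H4I, -0.66 for HIST1H2BK, -0.66 for H2AFX, -0.58 for HIST1H2AC, -0.55 for H2AFZ, -0.51 for HIST1H2AG and -0.41 for H3F3A. It was 0.24 for H1F0, 0.74 for HIST3H2A and 0.96 for HIST1H2BC.

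The same test passed for 18 other named genes. Among replication genes, the difference was -1.14 for CDC45, -1.13 for GINS2, -0.88 for MCM3 and -0.82 for MCM4. Among chaperone genes it was -0.82 for CHAF1B, -0.74 for ASF1B, -0.67 for HJURP and -0.42 for RBBP7. Among genes of histone message synthesis and processing it was -0.66 for CSTF2, -0.50 for CDK2, -0.46 for CPSF3 and -0.45 for NCBP1. Among histone genes that are not members it was -0.66 for CENPA, -0.43 for H2AFY2 and -0.36 for H2AFY. Among genes of quiescence it was 1.16 for KLF4, 0.63 for BTG1 and 0.54 for CDKN1A. No test for an outlying library was made in these groups of 3, but each call was refitted without single libraries. The difference of NCBP1 passed in 6 of 12 leave-outs. Its largest limma adjusted p there was 0.0773, without SOX2_KD replicate 3, and it was 0.0526 with no filter on low values. The others of these named genes passed without each of the 12 libraries in turn.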

How the results depend on the processing

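No alternative turned the sign of a call. Members passing in SOX2_KD were 9 with no filter, 8 with only the pair in the fit and 5 to 18 without single libraries; in PRKCI_KD 18 to 30, for the difference 6 to 14 and for NT2 against NT1 42 to 52. All features passing were 7977 to 9652 in PRKCI_KD, 423 to 1846 in SOX2_KD, 3707 to 4940 for the difference and 17550 to 18506 for NT2 against NT1. Member medians were -0.44 to -0.25 in PRKCI_KD, -0.68 to -0.44 in SOX2_KD, -0.13 to 0.17 for the difference and -0.31 to -0.14 for NT2 against NT1. In SOX2_KD, list counts without single libraries were 1 to 5 for message processing, 0 to 3 for chaperones, 2 to 10 for S phase, 0 to 2 for other histone genes and 1 to 3 for quiescence; in PRKCI_KD, other histone genes gave 3 to 5. Processing genes in SOX2_KD were 1 after quantile normalization and 2 with only the pair. Chaperones were 1 with no filter and 0 after quantile normalization. S phase genes were 5 with no filter or median-of-ratios scaling and 2 after quantile normalization. Other histone genes were 3 in PRKCI_KD with no filter, quantile normalization or median-of-ratios scaling, and 2 in SOX2_KD with a pseudocount of 1. Of all features passing in SOX2_KD, 44.4% were lower after quantile normalization. The cause of these moves was not tested. Same-numbered libraries did not deviate together in every pair (r from -0.03 to 0.18 over all features), so the numbers are not taken as pairs. Over all features each SOX2_KD library correlated best with its own number, and PRKCI_KD replicate 2 did not; over members SOX2_KD replicate 3 did not. With the replicate number as a block, 35 members passed in PRKCI_KD (4 higher, 31 lower), 28 in SOX2_KD (3 higher, 25 lower) and 18 for the difference. All features in SOX2_KD were then 2677, and the lists there 7 for processing, 6 for chaperones, 3 for other histone genes and 4 for quiescence. Few reads limit the 16 members below 1 RPKM.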

Other observations

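The features whose log2 level followed the summed RPKM of the HIST members most closely over the 12 libraries were DTWD2, ERCC6-PGBD3, CA13, ZNF136 and EPB41L4A, with Pearson's r of 0.994, 0.993, 0.992, 0.992 and 0.991. These libraries fall into 4 groups, PRKCI_KD and NT1 being high and SOX2_KD and NT2 low, so the values describe the groups and have no test. DTWD2 averaged 3.75 RPKM in PRKCI_KD, against 3.95 RPKM in NT1, and 1.24 RPKM in SOX2_KD, against 1.67 RPKM in NT2.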
